A study of Mus musculus with 23 samples.

Results

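The genes described here are 47 imprinted genes of the mouse, chosen as the probe sets whose symbol in the platform annotation is one of 47 named genes, out of 19661 genes with a symbol on the array. Of these, 40 had a probe set of their own and 36 were bright enough to be tested among 14745 genes. Usp29, Asb4, Calcr and Rian were dim (mean below 5.125 on the log2 scale). Snrpn, Mirg, Ube3a and Gnas lay only on probe sets that carry several symbols, and no probe set listed H19, Kcnq1ot1 or Zrsr1. Of the 36 tested genes, 20 are known as paternally expressed and 16 as maternally expressed. These labels come from the literature, and whether each holds in the juvenile testis was not tested here. The question asked of each gene was whether reciprocal hybrids were like the strain of their mother or that of their father.

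RNA was taken from spermatogenic cell preparations of mice 14.5 days old and measured on the Affymetrix Mouse Gene 1.0ST platform, where each array held a pool of 4 testes. There were 3 arrays of PWD, a wild-derived inbred strain of Mus musculus musculus, and 3 of B6, a laboratory strain of largely Mus musculus domesticus origin. Their reciprocal F1 hybrids, written with the mother first, gave 3 arrays of PWDxB6 and 3 of B6xPWD. PWDxPWK, an F1 of wild-derived strains, gave 2 arrays, after the authors had left out another that stood apart. B6xBALB/C gave 6 arrays and its reciprocal BALB/CxB6 gave 3, both F1s of laboratory strains. No mouse carried a transgene or received an agent, per the labels. Pools of a genotype are not stated to be from different litters, and the p-values below reflect only how these pools varied.

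An imprinted gene is expressed mainly from the copy inherited from 1 parent, because DNA methylation set in that parent's germ line marks a control region that governs a cluster of genes. The marks are erased in primordial germ cells of the fetus and set anew by the sex of the germ line, while Sertoli, Leydig and other somatic cells of the testis keep them. In a reciprocal pair of F1 hybrids every autosome is present as 1 PWD and 1 B6 copy, and for the autosomes only the parent that gave each copy is exchanged. A gene read from the paternal copy alone would therefore follow the father's strain, and one read from the maternal copy alone the mother's strain, if the strains differ at that gene. Which copy a transcript came from was not measured, since an array value sums both copies. Males of the reciprocal hybrids also differ in the strain of their X, Y and mitochondrial genome. The part of these in differences of autosomal genes was not tested and cannot be told apart from that of the parent of origin here.

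Promoter sequence was available for 33 of the 40 genes in RefSeq (GRCm38.p6). The 250 bases before the annotated start are shown for the genes that differed between PWD and B6 and are in that table, which are Nnat, Inpp5f and Igf2r, and for Blcap, whose intron holds Nnat. They are written 5′ to 3′ on the gene's strand, with each CG dinucleotide, the target of DNA methylation, in capitals. The Nnat window is chr2:157559828-157560077 on the plus strand and that of Blcap is chr2:157566362-157566611 on the minus strand. The Inpp5f window is chr7:128611115-128611364 on the plus strand and that of Igf2r is chr17:12769707-12769956 on the minus strand.
Nnat: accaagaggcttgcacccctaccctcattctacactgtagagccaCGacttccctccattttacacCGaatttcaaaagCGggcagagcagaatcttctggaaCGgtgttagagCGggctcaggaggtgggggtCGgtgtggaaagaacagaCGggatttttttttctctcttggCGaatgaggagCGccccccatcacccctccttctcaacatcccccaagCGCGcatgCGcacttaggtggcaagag
Blcap: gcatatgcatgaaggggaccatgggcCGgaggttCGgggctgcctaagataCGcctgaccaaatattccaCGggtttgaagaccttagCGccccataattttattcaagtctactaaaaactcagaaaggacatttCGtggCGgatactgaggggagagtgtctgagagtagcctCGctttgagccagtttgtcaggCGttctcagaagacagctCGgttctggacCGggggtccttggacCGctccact
Inpp5f: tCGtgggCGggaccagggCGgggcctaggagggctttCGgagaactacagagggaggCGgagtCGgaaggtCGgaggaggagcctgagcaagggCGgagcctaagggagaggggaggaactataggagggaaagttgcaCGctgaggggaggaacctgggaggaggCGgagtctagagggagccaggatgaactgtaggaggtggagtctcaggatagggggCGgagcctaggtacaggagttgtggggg
Igf2r: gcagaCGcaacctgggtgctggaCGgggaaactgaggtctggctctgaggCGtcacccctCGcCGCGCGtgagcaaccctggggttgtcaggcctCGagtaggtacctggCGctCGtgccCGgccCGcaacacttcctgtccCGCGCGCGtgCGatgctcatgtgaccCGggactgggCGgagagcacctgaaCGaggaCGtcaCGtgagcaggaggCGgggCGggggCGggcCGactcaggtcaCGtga
The Igf2r window held 27 CG, a number reached by 8.57% of the 32841 RefSeq windows of this length. Nnat and Blcap each held 12 CG, reached by 33.5% of windows, and Inpp5f held 11, reached by 35.6%. At least 10 CG were found in 27 of the 46 windows of the imprinted genes and in 37.8% of all windows. The GC box GGGCGG, searched on both strands, occurred 4 times in the Inpp5f window, 3 times in that of Igf2r and 0 times in those of Nnat and Blcap. It was present in 23 of the 46 windows of the imprinted genes and in 32.7% of all windows, and it can overlap a CG count since it contains one. Methylation was not measured in these samples. The Inpp5f window lies before the annotated start of the gene and is not that of its imprinted transcript, which starts in an intron.

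Differences are on the log2 scale of the deposited array values, and adjusted p-values are Benjamini-Hochberg values over 14745 genes from limma. The reciprocal difference is PWDxB6 minus B6xPWD and the strain difference is PWD minus B6, and they share no arrays. Their difference, here the mother-line test, departs from 0 where the hybrids do not differ as their mothers' strains do. Their sum, the father-line test, departs from 0 where the hybrids do not differ as their fathers' strains do. Array medians lay between 6.13 and 6.28. Germ cell markers passed the brightness filter for 8 of 8 genes and pachytene spermatocyte markers for 19 of 20. Markers of cells that a spermatogenic preparation is meant to leave out were also bright, with 13 of 15 for Sertoli cells, 7 of 10 for Leydig cells and 12 of 13 for peritubular and stromal cells. The PWDxB6 arrays had a mean pachytene marker score, centred over the 23 arrays, of -0.47 ± 0.24 (SD, n = 3) and the B6xPWD arrays one of 0.29 ± 0.30 (n = 3). It was -0.61 ± 0.08 (n = 3) in PWD and 0.17 ± 0.20 (n = 3) in B6. The score of 42 somatic markers ran from -0.12 to 0.17 in PWDxB6, from -0.17 to -0.06 in B6xPWD, from -0.01 to 0.10 in PWD and from 0.14 to 0.36 in B6. The array of B6xBALB/C replicate 6 stood apart, with a pachytene score of -0.718 against 0.326 or higher on the other 5 arrays of that genotype. Of the 19 pachytene markers 1 passed in the reciprocal comparison, all 19 were lower in PWDxB6 and their median was -0.40. Of the 8 germ cell markers 1 passed, all 8 were lower and their median was -0.46. The comparison passed for 0 of 13 Sertoli, 0 of 7 Leydig and 0 of 10 endothelial markers, against 2.83% of all genes. Of 12 peritubular and stromal markers 2 rose and 1 fell. Passed or not, 11 of 13 Sertoli, 5 of 7 Leydig, 8 of 10 endothelial and 9 of 12 peritubular and stromal markers were higher in PWDxB6. Of 7 macrophage markers 3 were higher and 4 lower, and of 12 spermatogonia markers 6 were higher and 6 lower. Over all genes 8244 of 14745 were higher. Both scores were also used as covariates, and beyond that their part in the results was not tested. In these mixed preparations, fewer cells of a type and less RNA per cell cannot be told apart, and neither can a strain difference in probe binding from one in RNA amount.

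**Figure D1:**
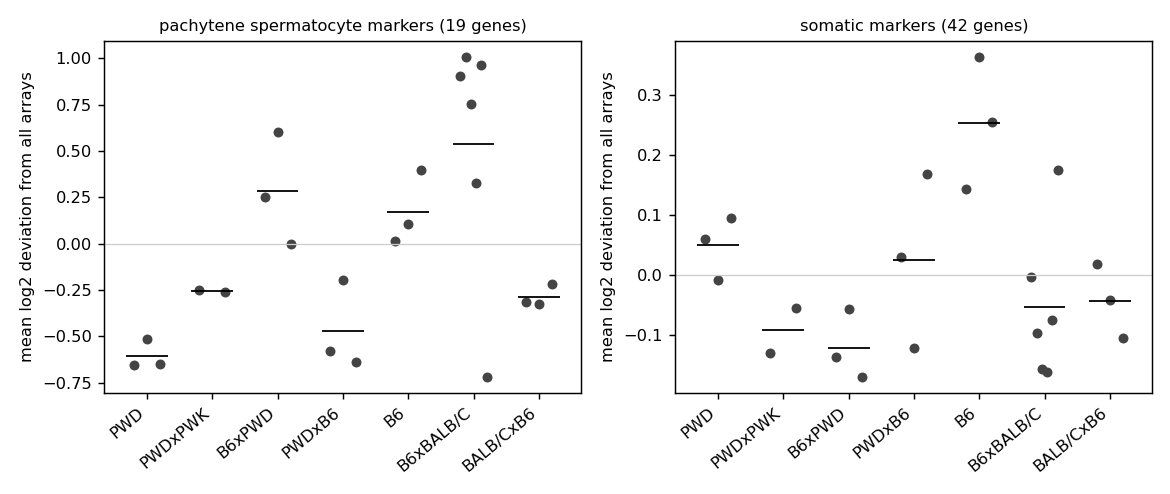
Pachytene spermatocyte marker score and somatic marker score (both in log2 units, centred on all arrays) on each of the 23 arrays, by genotype, with a line at each mean. Pachytene scores of PWDxB6 (-0.64 to -0.20) lay below those of B6xPWD (-0.00 to 0.60), and B6xBALB/C ranged from -0.72 to 1.01.

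Nnat, which encodes neuronatin, a small membrane proteolipid of the endoplasmic reticulum, is expressed from the paternal copy and lies within an intron of Blcap. It was high in every genotype with a PWD or PWK father and low in every genotype with a B6 or BALB/C father. The PWD arrays read 7.40, 7.58 and 7.48 and the B6 arrays read 6.13, 6.31 and 6.25. PWDxB6, with a B6 father, read 6.38, 6.59 and 6.27, whereas B6xPWD, with a PWD father, read 7.43, 7.28 and 7.28. The 3 arrays of each hybrid were thus near those of the father's strain and did not overlap with each other. PWDxPWK read 7.45 and 7.44. B6xBALB/C had a lowest value of 5.86, a median of 5.95 and a highest of 6.38, and BALB/CxB6 read 6.19, 6.37 and 6.21. The 8 arrays with a PWD or PWK father spanned 7.28 to 7.58 and the 15 with a B6 or BALB/C father spanned 5.86 to 6.59, with no overlap. Of these, only the PWDxB6 and B6xPWD arrays separate father from mother. In every other genotype the parents were both wild-derived or both of laboratory strains.

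**Figure D2:**
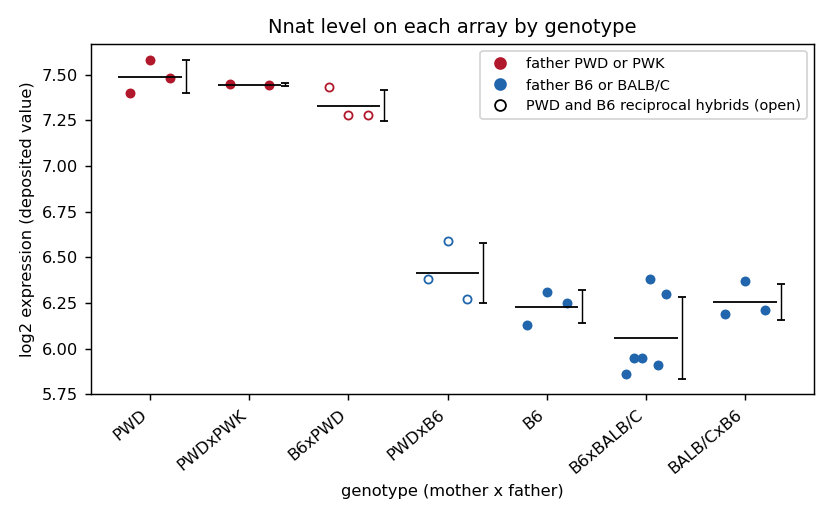
Nnat value (log2) on each of the 23 arrays, grouped by genotype with the mother's strain written first and coloured by the strain of the father, with a line at each mean and a bar for the SD. All 8 arrays with a PWD or PWK father lie at 7.28 or above and all 15 with a B6 or BALB/C father at 6.59 or below.

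The Nnat strain difference was 1.26 (SE 0.125, 95% interval 1.00 to 1.51, limma adjusted p = 1.88e-07). The reciprocal difference had the opposite sign, -0.92 (SE 0.125, 95% interval -1.18 to -0.66, limma adjusted p = 0.000343). The mother-line test gave -2.17 (SE 0.176, limma adjusted p = 2.76e-08). The father-line test gave 0.34 (95% interval -0.03 to 0.70, limma adjusted p = 0.186), so a departure from the father's strain of up to 0.70 is inside its interval. By the rule used here, under which a gene is father-like where the strain difference and the mother-line test pass at an adjusted p of 0.05 and the father-line test does not, Nnat was father-like. Against the mean of PWD and B6, B6xPWD was 0.47 higher (limma adjusted p = 0.00872) and PWDxB6 differed by -0.45 (limma adjusted p = 0.0547). The reciprocal difference kept its call under 19 of 19 alternative settings, with values between -1.06 and -0.85. It was -1.06 when the pachytene score entered the model and -0.91 when the somatic score did.

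Nnat was also compared in the other F1s, whose arrays entered the tests above only through the shared estimate of the spread. PWDxPWK, whose parents are both wild-derived, was 1.29 higher than the mean of the 2 laboratory F1s (SE 0.121, limma adjusted p = 9.38e-08). In the laboratory cross, BALB/CxB6 minus B6xBALB/C was 0.20 (95% interval -0.03 to 0.42, limma adjusted p = 0.436). The 2 reciprocal differences differed by -1.11 (SE 0.165, limma adjusted p = 0.00156). Among 14263 genes not on X or Y, 86 passed both for strain and for reciprocal difference, of which 67 had the same sign and 19 (0.133%) opposite signs. Nnat was the 1 gene of the 36 among these 86, and 0 other genes with opposite signs matched or exceeded it in both sizes. In a description made after the values were seen, 30 of these genes (0.21%) had no overlap between the arrays split by the father's strain as for Nnat, and 105 (0.736%) had none when split by the mother's strain. The first set contained Nnat and no other imprinted gene of the 36, and the second contained none.

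Blcap, the host gene of Nnat and a regulator of cell proliferation, is known as maternally expressed, which was not tested in these samples. It did not pass in any of these comparisons. Its level was 8.51 ± 0.13 (SD, n = 3) in PWDxB6 and 8.44 ± 0.13 (n = 3) in B6xPWD, a difference of 0.07 (95% interval -0.17 to 0.31). Its strain difference was 0.27 (limma adjusted p = 0.112).

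Across the imprinted genes, the reciprocal difference passed for 3 of 36 (Nnat, Commd1 and Mcts2), against 2.83% of all genes tested. All 3 were lower in PWDxB6, against 1.51% of all genes lower. The reciprocal differences ran from -0.92 to 0.59 with a median of 0.12, against a median of 0.03 over all genes. The strain difference passed for 4 of 36 (Nnat, Inpp5f, Igf2r and Kcnq1), against 18.4% of all genes, and all 4 were higher in PWD, against 10.4% of all genes higher. The mother-line test passed for 6 of 36, against 9.01% of all genes, and all 6 are paternally expressed genes. The father-line test passed for 6 of 36, against 17.3% of all genes, and these were 4 paternally and 2 maternally expressed genes. Hybrid arrays did not overlap for 10 of 36 genes, against 24% of all genes, and parental arrays did not overlap for 15 of 36, against 38%. The reciprocal and strain differences had opposite signs for 12 of 20 paternally expressed genes and for 8 of 16 maternally expressed genes. Over all genes not on X or Y the signs were opposite for 6008 of 14263 and the same for 57.9%. Most of these differences did not pass, so many of the signs are uncertain.

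**Figure D3:**
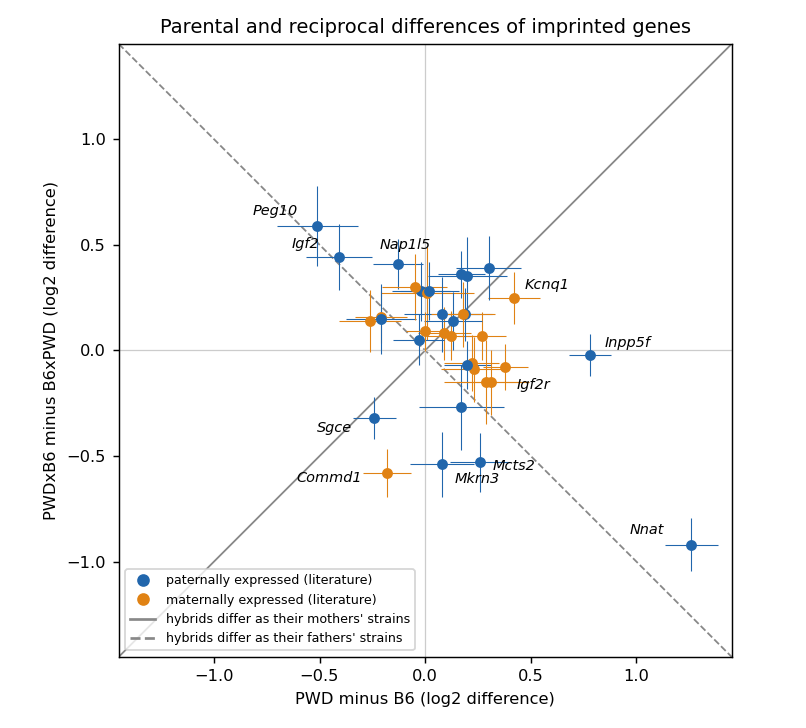
Strain difference (PWD minus B6, log2, horizontal) against reciprocal difference (PWDxB6 minus B6xPWD, log2, vertical) for the 36 imprinted genes tested, with bars for the SE, a solid line where hybrids differ as their mothers' strains and a dashed line where they differ as their fathers' strains. Nnat lies apart at 1.26 and -0.92, with Peg10 (-0.51 and 0.59) and Igf2 (-0.41 and 0.44) on the other side of 0 for both.

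Among the 4 genes that differed between strains, Nnat was father-like, Kcnq1 mother-like, Inpp5f intermediate and Igf2r unresolved. Of the 2628 genes not on X or Y that differed between strains, 19.8% were father-like, 40.2% mother-like, 18.3% intermediate and 21.6% unresolved by the same rule.

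Among the other paternally expressed genes, Peg10 encodes a retrotransposon-derived protein needed for the placenta. Its PWD arrays read 10.05, 10.07 and 10.07 and its B6 arrays read 10.70, 10.52 and 10.51. PWDxB6 read 10.20, 10 and 10.31 and B6xPWD read 9.43, 9.55 and 9.76. The lower parental strain was PWD and the lower hybrid was the one with a PWD father, without overlap in either pair, but B6xPWD lay below PWD too. PWDxPWK read 10.09 and 10.36, B6xBALB/C had a lowest value of 9.66, a median of 9.99 and a highest of 10.60, and BALB/CxB6 read 10.32, 10.21 and 9.71. Taken as 1 set, the 9 laboratory F1 arrays overlapped with both hybrids and both strains. Neither the strain difference of -0.51 (limma adjusted p = 0.0628) nor the reciprocal difference of 0.59 (limma adjusted p = 0.0859) passed. The mother-line test did, at 1.10 (SE 0.269, limma adjusted p = 0.0127), and the father-line test gave 0.08 (95% interval -0.48 to 0.63). With the somatic marker score as a covariate the mother-line value was 0.86 and no longer passed (limma adjusted p = 0.205). B6xPWD differed from the mean of the parents by -0.74 (limma adjusted p = 0.00763).

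Igf2, a growth factor of fetal tissues made from the paternal copy, had the same order of these 4 group means, with B6 highest and B6xPWD lowest. PWD read 7.05, 7.17 and 7.55 and B6 read 7.44, 7.81 and 7.75. PWDxB6 read 7.61, 7.51 and 7.51 and B6xPWD read 7.12, 7.19 and 6.99. The hybrids did not overlap, while the highest PWD array overlapped with the lowest B6 array. PWDxPWK read 7.46 and 7.17, B6xBALB/C had a lowest value of 6.96, a median of 7.21 and a highest of 7.50, and BALB/CxB6 read 7.45, 7.59 and 7.07. The BALB/CxB6 arrays overlapped with those of both hybrids, while PWDxPWK and B6xBALB/C lay below all PWDxB6 arrays. The strain difference was -0.41 (limma adjusted p = 0.0695) and the reciprocal difference 0.44 (limma adjusted p = 0.112). The mother-line test passed at 0.86 (SE 0.221, limma adjusted p = 0.0177), while the father-line test gave 0.03 (95% interval -0.43 to 0.49). That call was lost with the somatic score as a covariate, at 0.54 (limma adjusted p = 0.33), and without PWD replicate 1, at 0.75 (limma adjusted p = 0.0528). The somatic score was higher on every B6 array than on any PWD array. Its mean was 0.03 in PWDxB6 and -0.12 in B6xPWD, but their arrays overlapped (-0.12 to 0.17 and -0.17 to -0.06). Beyond its use as a covariate, its part in the Peg10 and Igf2 values was not tested.

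Mcts2, a retrogene derived from X-linked Mcts1 and inserted in an intron of H13, was highest in B6xPWD. PWD read 8.04, 8.20 and 8.12 and B6 read 7.65, 7.86 and 8.06. PWDxB6 read 7.75, 8.14 and 7.88 and B6xPWD read 8.36, 8.55 and 8.43. All 3 arrays of B6xPWD lay above every array of PWD, B6 and PWDxB6. PWDxPWK read 7.83 and 8.09, B6xBALB/C had a lowest value of 8.03, a median of 8.19 and a highest of 8.55, and BALB/CxB6 read 8.17, 8.09 and 8.45. Laboratory F1s thus reached the level of B6xPWD. The reciprocal difference was -0.53 (SE 0.141, limma adjusted p = 0.0439), and its call was lost in 10 of 19 alternatives, with adjusted p up to 0.276 under the pachytene score as a covariate. The mother-line test gave -0.79 (SE 0.199, limma adjusted p = 0.0154). It was lost in 1 of 25 alternatives, the somatic score as a covariate (-0.67, limma adjusted p = 0.188). Mcts1 gave a reciprocal difference of -0.41 (limma adjusted p = 0.233), and probes of near-identical copies can share signal, so the Mcts2 value is uncertain. H13, which encodes a signal peptide peptidase and is read from the maternal copy in its full length, had a reciprocal difference of 0.08 (limma adjusted p = 0.752).

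Inpp5f encodes an inositol phosphatase, and one of its transcripts, starting in an intron, is known as imprinted in brain. It read 8.02, 8.19 and 8.22 in PWD and 7.55, 7.27 and 7.28 in B6. PWDxB6 read 7.94, 7.93 and 7.82 and B6xPWD read 7.83, 7.91 and 8.03. The hybrids overlapped with each other and lay above every B6 array. PWDxPWK read 8.13 and 8.19, B6xBALB/C had a lowest value of 7.74, a median of 7.91 and a highest of 7.94, and BALB/CxB6 read 7.93, 8.22 and 8.08. The laboratory F1s lay above inbred B6 as well. The strain difference was 0.78 (SE 0.0991, limma adjusted p = 6.7e-06) and the reciprocal difference was -0.02 (95% interval -0.22 to 0.19). Both line tests passed, at -0.80 for the mother line (limma adjusted p = 0.00091) and 0.76 for the father line (limma adjusted p = 0.000863), which made Inpp5f intermediate.

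Sgce encodes epsilon-sarcoglycan and shares its promoter region with Peg10, from which it is read in the opposite direction. PWD read 8.10, 8.15 and 8.15 and B6 read 8.54, 8.25 and 8.35. PWDxB6 read 8.12, 8.24 and 8.26 and B6xPWD read 8.50, 8.50 and 8.58. Unlike Peg10, the hybrid with the higher values was the one whose mother was B6, the strain with the higher values. PWDxPWK read 8.15 and 8.15, B6xBALB/C had a lowest value of 7.77, a median of 7.95 and a highest of 8.12, and BALB/CxB6 read 8.15, 7.96 and 8.15. All laboratory F1 arrays lay below all B6 arrays. The father-line test passed at -0.57 (SE 0.143, limma adjusted p = 0.00947), and the mother-line test gave -0.08 (95% interval -0.38 to 0.22). Its strain difference of -0.24 (limma adjusted p = 0.1) and reciprocal difference of -0.32 (limma adjusted p = 0.0782) did not pass, so it has no class. With the pachytene score as a covariate the father-line call was lost (limma adjusted p = 0.0828).

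Impact, a regulator of the amino acid starvation response, and Peg12, a small intronless gene of the Prader-Willi region, also departed from the father's line. Impact read 8.78, 8.79 and 8.61 in PWD, 8.54, 8.60 and 8.54 in B6, 8.74, 8.83 and 8.78 in PWDxB6 and 8.27, 8.34 and 8.64 in B6xPWD. Its PWDxB6 arrays were all above those of B6xPWD. PWDxPWK read 8.60 and 8.74, B6xBALB/C had a lowest value of 8.05, a median of 8.20 and a highest of 8.46, and BALB/CxB6 read 8.47, 8.32 and 8.20. Its father-line test gave 0.53 (limma adjusted p = 0.022), a call lost in 5 of 25 alternatives. Impact was also 0.39 higher in PWDxPWK than in the laboratory F1s (limma adjusted p = 0.0185), a call lost without either PWDxPWK array (limma adjusted p = 0.0685 and 0.226).

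Peg12 read 6.90, 6.71 and 6.82 in PWD, 6.47, 6.67 and 6.38 in B6, 6.99, 6.65 and 6.91 in PWDxB6 and 6.86, 6.43 and 6.09 in B6xPWD. The 3 arrays of B6xPWD were spread widely and overlapped with PWDxB6. PWDxPWK read 6.69 and 6.47, B6xBALB/C had a lowest value of 6.30, a median of 6.58 and a highest of 6.70, and BALB/CxB6 read 6.78, 6.60 and 6.49. The father-line test gave 0.69 (limma adjusted p = 0.0308), a call lost in 9 of 25 alternatives, with adjusted p up to 0.293.

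Nap1l5, an intronless gene within an intron of Herc3, was lowest in B6xPWD. PWD read 5.86, 5.76 and 5.33, B6 read 5.80, 5.84 and 5.68, PWDxB6 read 5.80, 5.85 and 5.81 and B6xPWD read 5.61, 5.23 and 5.38. The hybrids did not overlap, and 1 PWD array lay among those of B6xPWD. PWDxPWK read 6.00 and 5.74, B6xBALB/C had a lowest value of 5.71, a median of 5.75 and a highest of 5.81, and BALB/CxB6 read 5.83, 5.65 and 5.65. The mother-line test gave 0.54 (limma adjusted p = 0.045), a call lost in 14 of 24 alternatives.

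**Figure D4:**
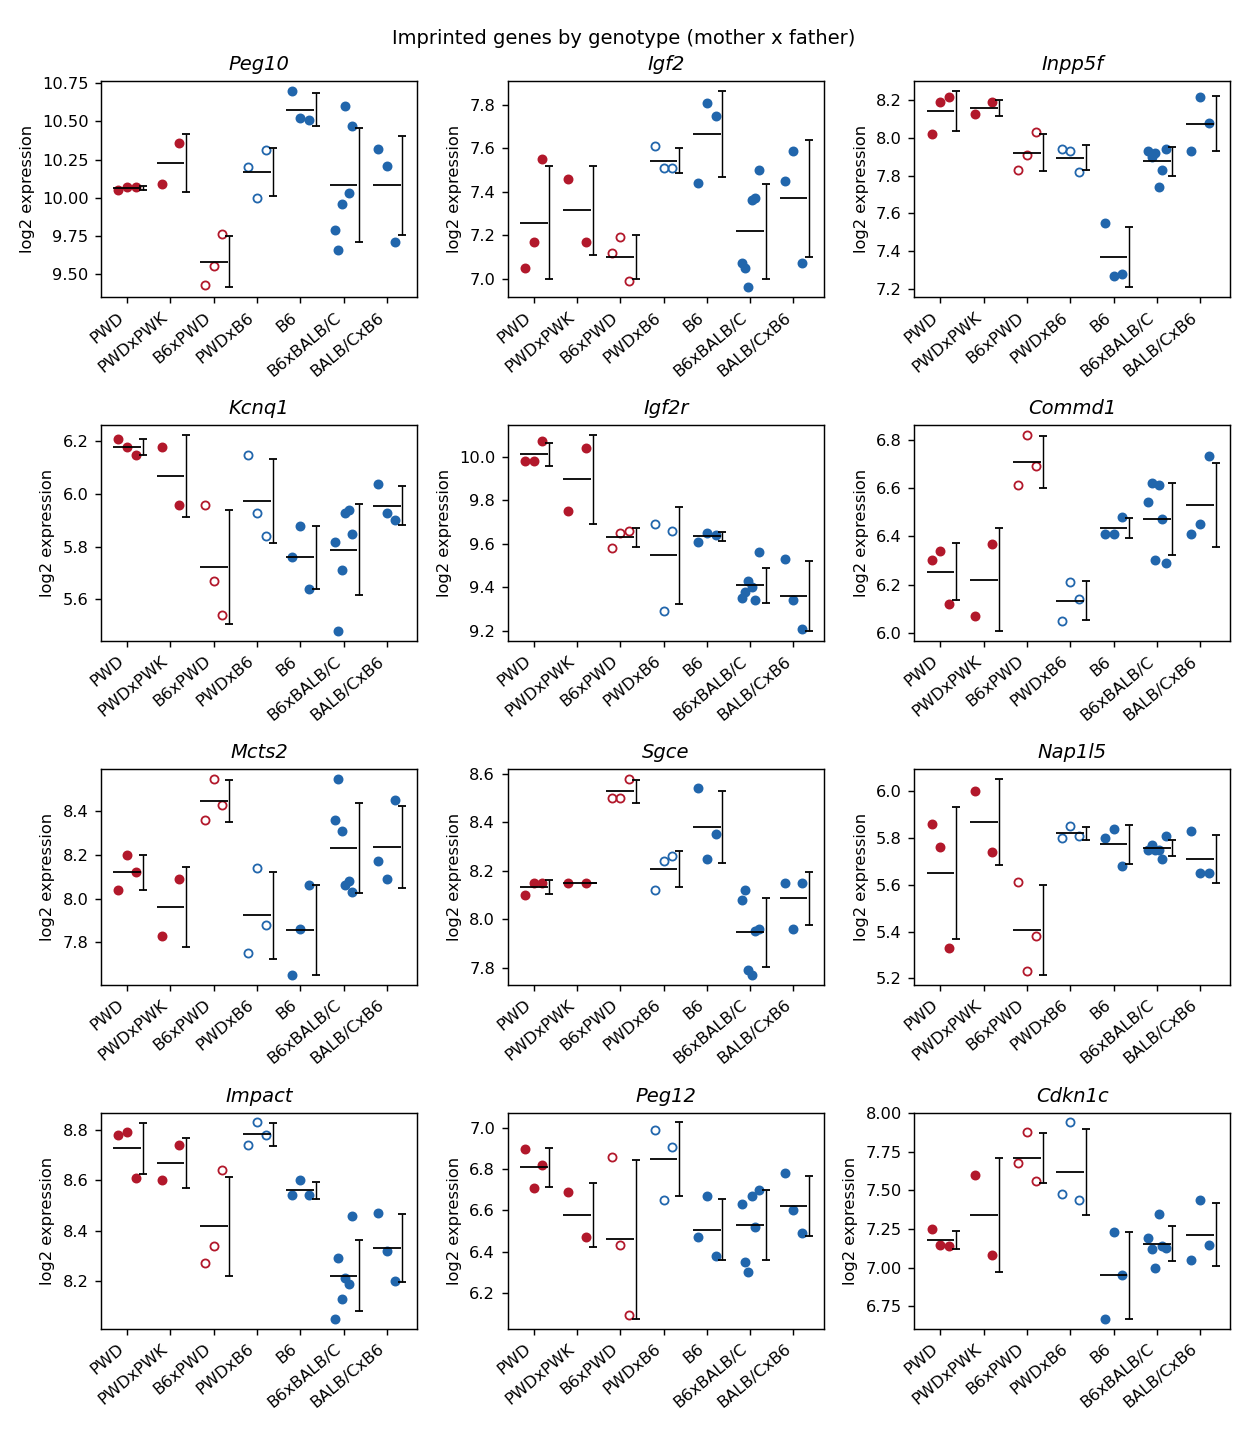
Values (log2) of 12 imprinted genes on each of the 23 arrays by genotype, in red for a PWD or PWK father and blue for a B6 or BALB/C father, with open points for the PWD and B6 hybrids, a line at the mean and a bar for the SD. Inpp5f hybrids of both directions overlap (7.82 to 8.03), while Mcts2 is highest in B6xPWD (8.36 to 8.55) among PWD, B6 and their hybrids.

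Among maternally expressed genes, Kcnq1, a potassium channel subunit whose cluster is governed by the Kcnq1ot1 transcript, differed between the strains. PWD read 6.21, 6.18 and 6.15 and B6 read 5.76, 5.88 and 5.64. PWDxB6 read 6.15, 5.93 and 5.84 and B6xPWD read 5.96, 5.67 and 5.54. The strains did not overlap, whereas the hybrids did. PWDxPWK read 6.18 and 5.96, B6xBALB/C had a lowest value of 5.48, a median of 5.84 and a highest of 5.94, and BALB/CxB6 read 6.04, 5.93 and 5.90. The strain difference was 0.42 (SE 0.123, limma adjusted p = 0.0201). The father-line test passed at 0.67 (SE 0.174, limma adjusted p = 0.0112) and the mother-line test gave -0.17 (95% interval -0.53 to 0.19). By the rule, which asks only which of these tests pass, this made Kcnq1 mother-like. The father-line call, on which this class rests, was lost with the pachytene score as a covariate (0.55, limma adjusted p = 0.117). Its reciprocal difference of 0.25 did not pass on its own (95% interval -0.00 to 0.51, limma adjusted p = 0.244). The PWDxB6 mean of 5.97 lay between those of PWD (6.18) and B6 (5.76), not at that of its mother's strain. It differed from the mean of the parents by 0.01 (limma adjusted p = 0.993), and B6xPWD differed by -0.25 (limma adjusted p = 0.118). The strain call was lost in 4 of 18 alternatives, which were the pachytene score as a covariate (limma adjusted p = 0.0763) and leaving out PWD replicate 1 (0.0636), PWD replicate 2 (0.0551) or B6 replicate 3 (0.0901).

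Igf2r, the receptor that carries Igf2 to lysosomes, is maternally expressed in most mouse tissues. PWD read 9.98, 9.98 and 10.07 and B6 read 9.61, 9.65 and 9.64. PWDxB6 read 9.69, 9.29 and 9.66 and B6xPWD read 9.58, 9.65 and 9.66. The strains did not overlap, and all 6 hybrid arrays lay below every PWD array, whichever strain was the mother. PWDxPWK read 9.75 and 10.04, B6xBALB/C had a lowest value of 9.34, a median of 9.39 and a highest of 9.56, and BALB/CxB6 read 9.53, 9.34 and 9.21. Both PWDxPWK arrays lay above all laboratory F1 arrays, by 0.51 on average (limma adjusted p = 0.00218), a call lost without PWDxPWK replicate 2 (0.36, limma adjusted p = 0.135). The strain difference was 0.38 (SE 0.108, limma adjusted p = 0.0174), lost with the pachytene score as a covariate (0.27, limma adjusted p = 0.117) and without PWD replicate 3 (limma adjusted p = 0.0648). Neither the mother-line test (-0.46, limma adjusted p = 0.0612) nor the father-line test (0.30, limma adjusted p = 0.184) passed, and the reciprocal difference was -0.08 (95% interval -0.31 to 0.14).

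Commd1, a copper homeostasis gene that holds the paternally expressed Zrsr1 in an intron, was lower in PWDxB6 than in B6xPWD. PWD read 6.30, 6.34 and 6.12 and B6 read 6.41, 6.41 and 6.48. PWDxB6 read 6.05, 6.21 and 6.14 and B6xPWD read 6.61, 6.82 and 6.69. All B6xPWD arrays lay above every array of B6 and PWD. PWDxPWK read 6.07 and 6.37, B6xBALB/C had a lowest value of 6.29, a median of 6.51 and a highest of 6.62, and BALB/CxB6 read 6.41, 6.45 and 6.73. The reciprocal difference was -0.58 (SE 0.113, limma adjusted p = 0.00985), the strain difference -0.18 (limma adjusted p = 0.286) and the father-line test -0.76 (SE 0.16, limma adjusted p = 0.0026). The mother-line test did not pass, at -0.39 (95% interval -0.73 to -0.06, limma adjusted p = 0.134). The father-line call was lost with the pachytene score as a covariate (-0.54, limma adjusted p = 0.0781). The reciprocal call was lost in 5 of 18 alternatives. These were leaving out PWDxB6 replicate 1 (limma adjusted p = 0.0579), PWDxB6 replicate 3 (0.0521) or B6xPWD replicate 2 (0.0729), and the pachytene score (-0.47, limma adjusted p = 0.079) or the somatic score (-0.52, limma adjusted p = 0.0574) as a covariate. The Commd1 reciprocal difference also differed from that of the laboratory cross, by -0.63 (SE 0.15, limma adjusted p = 0.0256).

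Cdkn1c, an inhibitor of cyclin-dependent kinases that slows growth, was high in both hybrids and is described in full after its values were seen. PWD read 7.25, 7.15 and 7.14 and B6 read 6.67, 7.23 and 6.95. PWDxB6 read 7.48, 7.94 and 7.44 and B6xPWD read 7.68, 7.88 and 7.56. All 6 hybrid arrays lay above all 6 parental arrays. How often this occurs over all genes was not counted, so the split is not read as a trait of Cdkn1c. B6xPWD differed from the mean of the parents for 14.5% of all genes and PWDxB6 for 0.671%. PWDxPWK read 7.60 and 7.08, B6xBALB/C had a lowest value of 7.0, a median of 7.13 and a highest of 7.35, and BALB/CxB6 read 7.05, 7.44 and 7.15. Against the mean of the parents, B6xPWD was 0.64 higher (SE 0.135, limma adjusted p = 0.0053) and PWDxB6 differed by 0.55 (SE 0.135, limma adjusted p = 0.057), and the reciprocal difference was -0.09 (95% interval -0.41 to 0.23). The call of B6xPWD was lost with the somatic score as a covariate and without B6xPWD replicate 2.

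Against the mean of the parents, B6xPWD differed for 10 of the 36 genes, against 14.5% of all genes. Cdkn1c, Nnat, Mcts2 (0.46), Mkrn3 (0.39), Commd1 (0.37) and Sgce (0.27) were higher and Peg10, Dlk1 (-0.49), Ppp1r9a (-0.48) and Nap1l5 (-0.30) were lower. With the somatic score as a covariate 0 of these 10 passed. PWDxB6 differed from the same mean for 0 of 36 genes with limma, against 0.671% of all genes, and 4 had an unadjusted p under 0.05, against 12% of all genes. These 2 comparisons share the parental arrays.

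Neighbours in the imprinted clusters gave reciprocal differences that did not pass with limma. In the Dlk1 and Dio3 cluster, Dlk1, a Notch-like membrane protein of fetal cells, had 0.35 (adjusted p = 0.284), the noncoding Meg3 had 0.27 (0.487), the retrotransposon-derived Rtl1 had 0.17 (0.591) and Dio3, which inactivates thyroid hormone, had -0.27 (0.448). In the Prader-Willi region, Mkrn3, a ubiquitin ligase linked to the timing of puberty, had -0.54 (adjusted p = 0.0557), Magel2 0.28 (0.248) and Ndn 0.14 (0.567). In the Kcnq1 cluster the placental growth regulator Phlda2 had -0.15 (adjusted p = 0.585), the transporter gene Slc22a18 0.17 (0.526), the trophoblast transcription factor Ascl2 -0.06 (0.806), the tetraspanin Cd81 0.16 (0.455) and Tssc4 -0.15 (0.684). The zinc-finger gene Peg3 had -0.07 (adjusted p = 0.752) and its neighbour Zim1 0.14 (0.593). The remaining tested genes, Mest, Grb10, Plagl1, Rasgrf1, Slc38a4, Trappc9 and Ppp1r9a, lay between 0.05 and 0.30. Their strain differences did not pass either, and their line tests did not.

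The laboratory cross asked the same question of strains that share much of their origin. BALB/CxB6 minus B6xBALB/C passed for 0 of 36 imprinted genes with limma, against 0.441% of all genes. Only Inpp5f had an unadjusted p under 0.05, at 0.0287, with a difference of 0.20 (limma adjusted p = 0.275), against 14.2% of all genes at that unadjusted threshold. The differences ran from -0.07 to 0.23, a narrower range than the -0.92 to 0.59 of the PWD and B6 hybrids. Arrays of the 2 laboratory F1s overlapped for all 36 genes, while 3.91% of all genes had no overlap. With only replicates 1 to 3 of B6xBALB/C, Nnat passed at 0.33 (limma adjusted p = 0.0391). That setting leaves out replicates 4 and 5 as well as replicate 6, the array that stood apart. Under it 1275 genes passed in all, against 65 with every array kept. With only replicate 6 left out, 0 of the 36 imprinted genes passed. The highest Nnat value of B6xBALB/C was on replicate 4 (6.38), against 6.30 on replicate 6. BALB/C inbred mice were not analysed here, so a strain difference could not be set beside this cross. The difference between the 2 reciprocal differences passed for 2 of 36 genes, Nnat and Commd1, against 2.68% of all genes. For Commd1 it was lost in 6 of 29 alternatives (adjusted p up to 0.116) and for Nnat in 0 of 30.

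**Figure D5:**
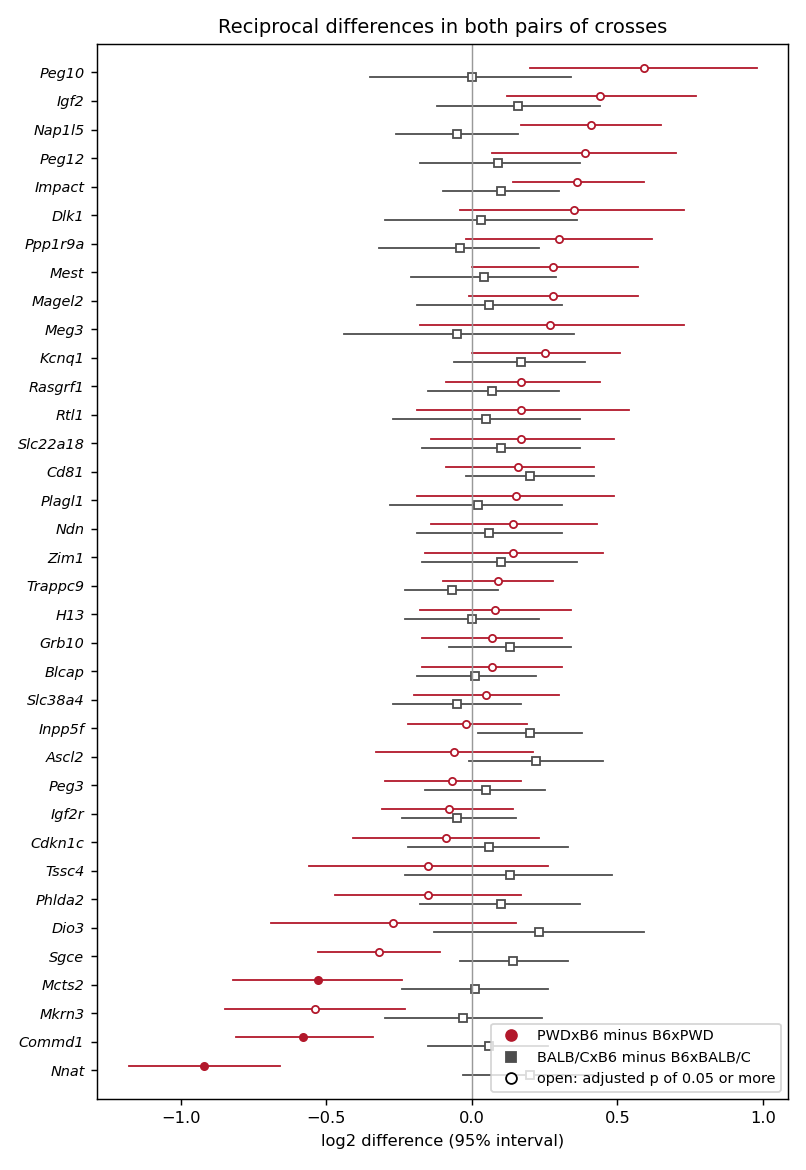
Reciprocal difference of the PWD and B6 hybrids (PWDxB6 minus B6xPWD) and of the laboratory cross (BALB/CxB6 minus B6xBALB/C), both in log2 units and with the B6-fathered F1 first, for the 36 imprinted genes tested, with 95% intervals and filled points for an adjusted p under 0.05. Laboratory differences stay between -0.07 and 0.23, and Nnat (-0.92 against 0.20) and Commd1 (-0.58 against 0.06) are furthest below 0 in the PWD and B6 hybrids.

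PWDxPWK against the 2 laboratory F1s, a comparison of wild-derived with laboratory genomes that shares no array with PWD or B6, passed for 3 of 36 imprinted genes (Nnat, Igf2r and Impact, all higher), against 11% of all genes. Of the 4 genes that differed between PWD and B6, Inpp5f had 0.18 here (limma adjusted p = 0.247) and Kcnq1 0.20 (limma adjusted p = 0.334).

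A further list of 39 imprinted genes, of which 28 were tested, had 0 reciprocal calls in the PWD and B6 hybrids and 0 in the laboratory cross with limma, against 2.83% and 0.441% of all genes. At an unadjusted p under 0.05 there were 3 in the hybrids and 4 in the laboratory cross, against 21.1% and 14.2% of all genes. Their strain differences passed for 7 of 28 (1 higher and 6 lower in PWD), against 18.4% of all genes. The mother-line test passed for 6 of 28, against 9.01%, and the father-line test for 3 of 28, against 17.3%. Of 27 regulators of imprints, such as DNA methyltransferases and chromatin proteins, 24 were tested and 0 had a reciprocal call in either cross with limma, against the same 2.83% and 0.441%. At an unadjusted p under 0.05 there were 3 in the hybrids and 4 in the laboratory cross, against the same 21.1% and 14.2%. The difference between the 2 reciprocal differences passed for 1 of the 24 regulators, against 2.68% of all genes. Their mother-line test passed for 3 of 24, against 9.01%, and their father-line test for 3 of 24, against 17.3%. In PWD against B6 the regulators passed for 4 of 24, close to the 18.4% of all genes. Named after their values were seen, these were the methyltransferase gene Dnmt3b (0.41), the histone methyltransferase gene Ehmt2 (0.36), the chromatin protein gene Smchd1 (0.59) and the cytidine deaminase gene Apobec1 (-0.74).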

How the data were processed

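The authors deposited values, taken here as log2 and made from 1 array for each pool of 4 testes, for 25690 probe sets and 23 arrays. That the scale is log2 was read from the range (1.17 to 13.96). The sources used here do not give the base, background correction, normalization, centring or software. Scanner signals were not analysed, and the signal of a probe over background is unknown. Probe sets were named from the platform annotation: 20777 had 1 symbol, 232 had several and 4681 had none, and only the first were named. Of these, 20696 matched the GRCm38.p6 gene table by Entrez ID, and 0 symbols changed. Where a gene had several probe sets (564 of 19661), the brightest over all arrays was used. The dimmest 25% of genes were left out, leaving 14745.

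With limma 3.58.1 in R 4.3.3, a mean for each of the 7 genotypes was fitted over the 23 arrays (16 residual degrees of freedom, no trend). A call is an adjusted p under 0.05 by the method of Benjamini-Hochberg. Members past this threshold in the reciprocal, strain, laboratory-cross, mother-line or father-line comparison were described on every array, and other members by ranges and counts. The script was tested on simulated data. Alternatives changed the filter, normalization, variance model, probe set rule, array weights, replicate block, covariates and arrays used. Intervals are 95%, and precision is limited by how many arrays there were. The genes, lists and tests were chosen with earlier results of these data known. The replicate numbers were not used as pairs in the main fit. Of 30 same-number pairs 8 correlated above 0.1, but pairs of unlike number were not compared, so this cannot decide whether the numbers pair the arrays. Figures were drawn with matplotlib 3.10.9.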

Additional observations from a re-analysis of the deposited data

Results flagged for a closer look

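Nnat had a reciprocal difference in the PWD and B6 hybrids that differed from that of the laboratory cross by -1.11 (SE 0.165, limma adjusted p = 0.00156), with all 3 PWDxB6 arrays below all 3 B6xPWD arrays. Commd1 was the other imprinted gene whose reciprocal differences differed between the crosses, by -0.63 (SE 0.15, limma adjusted p = 0.0256), again with no overlap of the hybrid arrays.

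In B6xBALB/C, 1 array lay far from the other 5 for 2 of the 36 genes checked. Ppp1r9a read 9.17 on replicate 6 and 8.86 or lower on the others, a gap of 0.647 of the range, and Zim1 read 5.36 on replicate 6 and 5.18 or lower on the others, a gap of 0.728. Both gaps are above Dixon's 95% critical value for 6 arrays, which chance alone passes for about 1 in 20 genes. The 2 of 36 genes are near that rate, and the share over all genes was not counted. The same array had the lowest pachytene score of its genotype (-0.718), and the part of this in the 2 genes was not tested.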

How the results depend on the processing

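Of 34 calls of the imprinted genes, refitted under 776 alternatives in all, 644 values kept the call, 132 lost it and 0 reversed. Nnat kept its calls for the strain difference (19 of 19 alternatives), the reciprocal difference (19 of 19), the mother-line test (25 of 25), the difference between crosses (30 of 30) and PWDxPWK against laboratory F1s (24 of 24). The counts of imprinted genes called moved as follows. For the reciprocal difference (3), array weights gave 16, the replicate block 7, and the pachytene or somatic score as a covariate 1 each, with 1 to 4 when leaving out an array (1 without PWDxB6 replicate 1 or B6xPWD replicate 2). For the strain difference (4), leaving out an array gave 3 to 5. For the mother-line test (6), array weights gave 14 and the somatic score 3, with 5 to 6 when leaving out an array. For the father-line test (6), the pachytene score gave 1, with 4 to 7 when leaving out an array. For the laboratory cross (0), the replicate block and B6xBALB/C replicates 1 to 3 alone each gave 1, in both cases Nnat (0.33), and leaving out an array gave 0. For the difference between crosses (2), array weights gave 6, the groups compared alone 1, the pachytene score 4 and the somatic score 1, with 1 to 3 when leaving out an array (1 without PWDxB6 replicate 1 or 3, B6xPWD replicate 2 or BALB/CxB6 replicate 3). For PWDxPWK against laboratory F1s (3), leaving out an array gave 1 to 3 (1 without PWDxPWK replicate 2). For PWDxB6 against the mean of the parents (0), the stricter filter, quantile normalization and the groups compared alone each gave 1, and array weights, the replicate block and the pachytene score each 2, with 0 to 1 when leaving out an array (1 without B6 replicate 2). For B6xPWD against that mean (10), no filter gave 6, array weights 18, the pachytene score 3 and the somatic score 0, with 2 to 10 when leaving out an array (6 without PWD replicate 1 or B6 replicate 2, and 2 without B6xPWD replicate 2). Where values moved, the cause was not tested.

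Counts over all genes moved too. The reciprocal difference (418 genes) had 4635 with array weights, 1044 with the replicate block, 207 with the groups alone, 112 with the pachytene and 69 with the somatic score. Leaving out an array gave 54 (PWDxB6 replicate 3) to 626 (PWDxB6 replicate 2). The laboratory cross (65) moved both ways. It had 1618 with array weights, 1311 with the block, 1275 with B6xBALB/C replicates 1 to 3, 151 with the somatic score, 30 with robust variances, 23 with quantile normalization, 21 with the stricter filter, 2 with the pachytene score and 0 with the groups alone or B6xBALB/C replicates 4 to 6. It had 1011 without B6xBALB/C replicate 6, 218 without replicate 4, and 1 to 8 without any other array. The difference between crosses (395) had 2000 with array weights, 899 with the block, 858 with the pachytene and 170 with the somatic score, 178 with the groups alone, 835 with B6xBALB/C replicates 1 to 3 and 206 with 4 to 6. Leaving out an array gave 53 (BALB/CxB6 replicate 3) to 579 (PWDxB6 replicate 2). The mother-line test (1328) had 3314 with array weights, 377 with the somatic score and 788 to 1544 without an array, and the father-line test (2546) had 4965 with array weights, 1625 with the pachytene score and 1729 to 2704 without an array. PWDxPWK against laboratory F1s (1620) had 777 and 775 without PWDxPWK replicate 1 or 2. PWDxB6 against the mean of the parents (99) ran from 30 (without PWDxB6 replicate 2) to 548 (pachytene score). B6xPWD against that mean (2135) had 5967 with array weights, 653 with the pachytene score, 12 with the somatic score and 389 without B6xPWD replicate 2. The percentages over all genes therefore belong to the settings of the text.

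The replicate numbers give no known pairing, and correlations of same-number arrays, which ran from -0.223 to 0.325, cannot settle whether there was one. With 2 or 3 arrays in most groups, small differences could not be resolved.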
